A study of Mus musculus with 25 samples.

Results

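Integrin and laminin genes were followed through hepatic progenitor cells with 3 levels of oncogenic Ras, through the tumours that such cells formed in mice, and through the stroma of those tumours. The members were all genes of the count table whose symbols name an integrin alpha or beta subunit or a laminin alpha, beta or gamma chain, without Itgb7 and Itgae. This gave 35 of 24984 genes, made up of 17 integrin alpha subunits, 7 integrin beta subunits and 11 laminin chains. The cultured cells were BMEL, a clonally derived line of bipotential progenitors from embryonic liver of a C57B/6_C3H mouse, grown on collagen-coated plates. They carried an empty vector (BMEL WT, n = 3 libraries) or a vector encoding human HRas G12V from a cDNA and, separately, a fluorescent protein. The Ras cells were sorted for weak (RasLOW, n = 3) or strong (RasHIGH, n = 3) fluorescence, with gates that left an overlap. The other 16 libraries came from athymic nude mice, which lack T cells matured in a thymus but keep other leukocytes. BMEL-Ras cells mixed with Matrigel, a basement membrane extract rich in laminin protein, had been injected into the liver, and cells of the liver tumour and of a peritoneal tumour of the same 4 mice were sorted by fluorescence of the Ras vector into tumour cells and stromal cells (n = 4 in each of the 4 groups). The labels do not say which BMEL-Ras population gave these tumours, and the stroma is every non-fluorescent cell, of any type.

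Integrins are receptors of an alpha and a beta subunit that bind extracellular matrix or other cells and link them to the cytoskeleton. Laminins are trimers of an alpha, a beta and a gamma chain and are the main glycoproteins of basement membranes. Lama3 and Lamb3 encode chains of epithelial laminin. Laminin-511 is built from the products of Lama5, Lamb1 and Lamc1, and is bound by integrins alpha3beta1, alpha6beta1 and alpha6beta4. In the liver, laminin is known to surround bile ducts and progenitor cells, whereas hepatocytes rest on a matrix that holds little of it.

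Promoter windows are shown for 3 members on which results below turn: Itgb6, which differed most between the cultures, Lamb3, which differed between culture, tumour cells and stroma, and Itga3, an abundant laminin receptor subunit with a match to the letters searched. Each is 300 bases around a RefSeq transcription start in build GRCm38.p6, printed on the strand of the gene, and Itgb6, Lamb3 and Itga3 each have a second window that is not printed. The search was for TGANTCA, with any base in the middle. It is wider than the usual site of AP-1, a transcription factor activated by Ras signalling, which has C or G there. The Itga3 match has A there, and the shares below count any middle base. TGANTCA reads the same on both strands. Capitals mark its match.
Itgb6, chr2:60722554-60722853, minus strand: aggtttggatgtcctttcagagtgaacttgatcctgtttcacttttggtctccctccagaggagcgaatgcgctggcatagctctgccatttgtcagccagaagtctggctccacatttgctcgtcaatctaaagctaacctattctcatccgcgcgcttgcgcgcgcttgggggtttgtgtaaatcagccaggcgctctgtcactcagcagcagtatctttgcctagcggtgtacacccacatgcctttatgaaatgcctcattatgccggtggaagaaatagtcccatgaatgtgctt
Lamb3, chr1:193301744-193302043, plus strand: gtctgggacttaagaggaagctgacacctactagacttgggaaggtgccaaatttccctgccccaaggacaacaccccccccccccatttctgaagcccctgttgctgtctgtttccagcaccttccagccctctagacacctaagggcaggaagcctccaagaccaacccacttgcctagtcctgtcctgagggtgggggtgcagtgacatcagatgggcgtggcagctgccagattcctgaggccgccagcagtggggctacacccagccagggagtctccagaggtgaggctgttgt
Itga3, chr11:95069149-95069448, minus strand: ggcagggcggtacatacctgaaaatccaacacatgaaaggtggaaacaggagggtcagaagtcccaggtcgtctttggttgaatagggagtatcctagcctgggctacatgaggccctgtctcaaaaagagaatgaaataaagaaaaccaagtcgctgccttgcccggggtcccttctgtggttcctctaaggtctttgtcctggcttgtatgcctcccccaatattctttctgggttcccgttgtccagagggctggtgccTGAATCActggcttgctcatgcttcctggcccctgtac
Of 35 members, 22 had windows, 25 windows in all, and TGANTCA was in 3 of these (12%, in Itga3, Itga9 and Itgax), beside 7.81% of all 32851 windows of the same length. Of the 2 Itgb6 windows and the 2 Lamb3 windows, none held these letters, and neither did the Itga3 window that is not printed. In build mm9, Itgb6 lies at chr2:60436349-60560700 and Lamb3 at chr1:195128151-195170072. The leukocyte genes Itgam, Itgax and Itgad lie next to each other on chromosome 7, with gaps of 1387 and 3719 bases.

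Libraries held 20818989 to 51241336 counts. Within groups, log2(CPM + 1) values of pairs of libraries correlated at r = 0.965 to 0.995 across genes, and no 2 libraries held the same values. The transgene is a human cDNA, and mouse Hras did not separate the cultures (71.1 to 86.6 CPM in BMEL WT, 46.7 to 101 in RasLOW and 50.0 to 79.5 in RasHIGH), so the Ras labels could not be checked on it. The summed CPM of 5 epithelial markers (Krt8, Krt18, Krt19, Epcam and Cdh1) was 7602 to 10767 in tumour cells and 675 to 1551 in stroma, a sum carried by the keratins. Epcam went the other way, with 0 to 5 counts in each tumour cell library (at most 0.127 CPM) and 3.13 to 6.57 CPM in stroma, and was near absent in cultures too (at most 0.829 CPM). The summed CPM of 8 measured leukocyte markers was 20.8 to 175 in tumour cells and 3474 to 5397 in stroma. The stroma of the sites differed in its markers: 7 fibroblast and stellate cell markers summed to 4140 to 8416 CPM in liver stroma and to 53992 to 81956 CPM in peritoneal stroma. In bulk RNA, fewer cells of a type and less RNA per cell cannot be told apart. One library stood apart, the tumour cells of the peritoneal tumour of mouse 1, where the leukocyte markers (175 CPM) and fibroblast markers (1455 CPM) were the highest of the 8 tumour cell libraries, and printed fold changes of members that it moved by over 1.5 times are given with and without it.

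Levels are CPM, counts relative to library size, scaled over all 25 libraries, given as mean ± SD, and fold changes come from separate fits for each pair of groups. A member was called at thresholds taken from the study, which does not say in its text whether its p-values were adjusted. A gene list in its supplement gives adjusted p-values for the culture comparisons. Unadjusted p-values were used here: between cultures, a log2 fold change beyond 1.5 in either direction at an unadjusted p under 0.01, and in comparisons with sorted cells, beyond 1 at p under 0.05. Adjusted p-values are Benjamini-Hochberg values over all genes tested.

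In BMEL WT cells, the laminin receptor subunits Itgb1 and Itga3 had the highest levels per kilobase of exon, 203 and 193 CPM per kb. They were followed by Lama5 (55.2), the collagen receptor subunit Itga2 (44.6), Lamb1 (44.2) and Itga6 (43.4 CPM per kb), the last 3 with spreads that overlapped. Lower than these were Itgb4 at 38.7, Lamc1 at 28.6 and Lamb3 at 8.84 CPM per kb. Lama3 was near absent at 0.0622 CPM per kb. Itga8, Itga9, Itga11, Itgad, Itgal, Itgam, Itgax, Itgb8, Lama1, Lama2 and Lama4, the 11 members that did not pass the filter on low counts in cultures, had at most 11 counts in any of the 9 culture libraries, and Lama1 had none.

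The comparison of the cultures asked how integrins and laminins differ with the level of Ras. The clearest difference was in opposite directions for a pair of epithelial integrin genes: Itga6 was higher and Itgb6 lower in cells with Ras. Against BMEL WT, 2 of 24 tested members were called in RasLOW cells, both lower, beside 4.4% of all genes tested, and 4 of 24 in RasHIGH cells, 2 higher and 2 lower, beside 9.65%. Between RasHIGH and RasLOW, 1 of 24 was called, beside 2.12%. In RasHIGH, 3.62% of all genes were called higher and 6.03% lower, and between RasHIGH and RasLOW, where the member was lower, 0.886% were. The counts rest on single genes. With an adjusted p under 0.01 in place of the unadjusted one, edgeR's test called 0, 2 and 0 members, beside 0.772%, 6.03% and 0% of all genes, and the 2 in RasHIGH were Itga6, higher, and Itgb6, lower, the direction of 3.81% of all genes. At an unadjusted p under 0.05 alone, 8, 14 and 4 members of 24 passed, beside 21.4%, 35.1% and 9.78% of all genes. With the thresholds of the sorted cells, which the study also applied to the 2 Ras cultures, Itga1 (1.30, SE 0.27) joined Itgb6 between RasHIGH and RasLOW, making 2 of 24, beside 4.94% of all genes. The first 2 comparisons share the BMEL WT libraries. The median log2 fold change of the tested members was -0.10 for RasLOW and -0.08 for RasHIGH against BMEL WT, beside 0.01 and -0.02 over all genes tested.

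Among the laminin receptors, Itga6, the alpha subunit of alpha6beta1 and alpha6beta4, was at 341, 426 and 409 CPM in BMEL WT, at 1122, 709 and 714 in RasLOW and at 1306, 1273 and 1087 CPM in RasHIGH. All 6 Ras libraries were above all 3 BMEL WT libraries, and the ranges of RasLOW and RasHIGH overlapped. The log2 fold change against BMEL WT was 1.61 (SE 0.14, adjusted p = 6.4e-04) in RasHIGH and 1.08 (SE 0.21, adjusted p = 0.0288) in RasLOW, which is under the threshold of 1.5. Neither of its beta partners was called. Itgb1, the shared partner of most matrix-binding alpha subunits, had values of 894, 905 and 691 CPM in BMEL WT, 655, 477 and 596 in RasLOW and 458, 480 and 543 in RasHIGH, a log2 fold change of -0.78 (SE 0.15, adjusted p = 0.0121) in RasHIGH that was not called. Itgb4, the beta subunit of hemidesmosomes, was at 272 ± 29.6, 277 ± 84.2 and 262 ± 57.9 CPM in the 3 cultures, and the 95% interval of its log2 fold change in RasHIGH ran from -0.43 to 0.25. For Itga3 that interval ran from -0.29 to 0.21.

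Among integrins that bind RGD motifs, Itgb6, whose product pairs with alphav and activates latent TGF-beta, was at 28.1, 52.9 and 27.0 CPM in BMEL WT. It was at 10.1, 14.4 and 13.3 CPM in RasLOW and at 1.39, 1.20 and 4.67 CPM in RasHIGH cells. The 3 groups did not overlap. Of all genes, 28.5% did not overlap between RasLOW and BMEL WT, 42.9% between RasHIGH and BMEL WT and 15.8% between RasHIGH and RasLOW. The log2 fold change was -1.54 (SE 0.30, adjusted p = 0.0306) in RasLOW and -3.93 (SE 0.59, adjusted p = 0.0044) in RasHIGH against BMEL WT, and -2.38 (SE 0.55, adjusted p = 0.184) in RasHIGH against RasLOW. The RasLOW call was lost without BMEL WT replicate 2 (-1.16) and without RasLOW replicate 1 (-1.39), and the call between RasHIGH and RasLOW without RasLOW replicate 3 (-2.34) and without RasHIGH replicate 2 (-2.06). Itgb3, another partner of alphav, was at 7.48 ± 2.5 CPM in BMEL WT, 14.4 ± 4.79 in RasLOW and 28.1 ± 14.7 in RasHIGH, with a log2 fold change of 1.87 (SE 0.41, adjusted p = 0.0180) in RasHIGH. Its RasHIGH values were 44.5, 23.9 and 16 CPM, and the call was lost without RasHIGH replicate 1 (1.40), BMEL WT replicate 1 (1.79) or BMEL WT replicate 2 (1.69). The alpha subunit itself, Itgav, was at 276 ± 21.4, 242 ± 35.1 and 233 ± 15.8 CPM, and was not called.

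Among laminin chains, Lamc3 was called at a low level: 3.50 ± 0.90 CPM in BMEL WT, 1.17 ± 0.19 in RasLOW (log2 fold change -1.61, SE 0.34, adjusted p = 0.0362) and 1.19 ± 0.45 in RasHIGH (-1.58, SE 0.36, adjusted p = 0.0213). Both calls were lost without BMEL WT replicate 2, at -1.39 and -1.36, and the RasHIGH call also without RasHIGH replicate 1 or 2, at -1.44 and -1.42. Of the BMEL WT libraries, 2 were sequenced in lane 3, while every Ras library was in lane 4. Against the only BMEL WT library of lane 4, which had to be assumed to vary like the Ras libraries, Itga6 and Itgb6 were still called in RasHIGH, and Itgb3 and Lamc3 were not (1.41 and -1.43), nor was either RasLOW call (Itgb6 -1.13, Lamc3 -1.46). Lamb3 was lower in RasHIGH, at 8.47, 17.5 and 18.2 CPM, than in BMEL WT, at 43.0, 42.3 and 30.5 CPM, and at a log2 fold change of -1.42 (SE 0.32, adjusted p = 0.0192) was just under the threshold. The chains of laminin-511 were not called: Lama5 was at 630 ± 101, 707 ± 162 and 724 ± 368 CPM, Lamb1 at 439 ± 49.4, 440 ± 26.6 and 567 ± 205 CPM, and Lamc1 at 237 ± 34.7, 328 ± 31.2 and 355 ± 144 CPM in BMEL WT, RasLOW and RasHIGH.

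**Figure D1:**
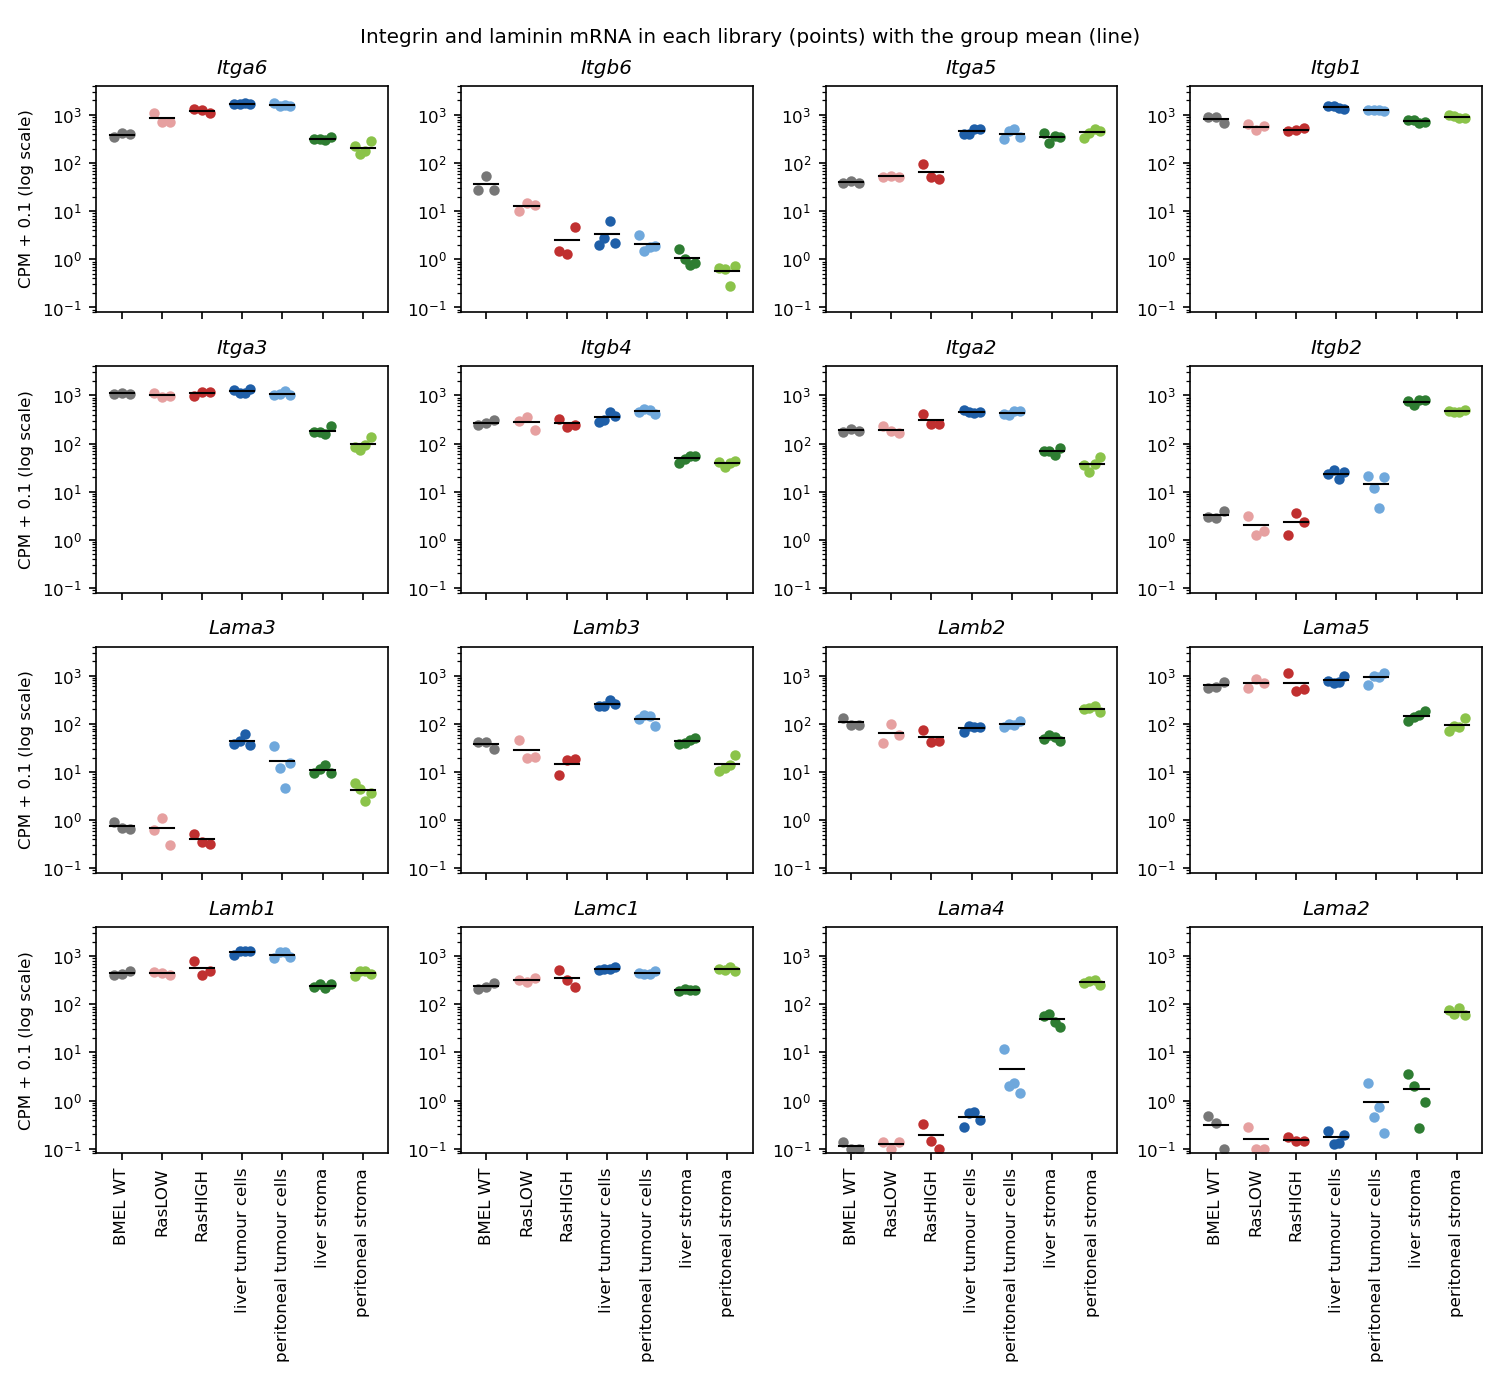
CPM with 0.1 added (log axis) of 16 integrin and laminin genes in each of the 25 libraries, grouped by culture and sorted population, with black lines for group means. Mean Itgb6 was 36.0 CPM in BMEL WT and 2.42 CPM in RasHIGH, mean Lama3 was 0.298 CPM in RasHIGH and 44.8 CPM in liver tumour cells, and Lama2 and Lama4 were highest in peritoneal stroma.

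Tumour cells sorted from the mice were then set against the RasHIGH culture. The laminin chains Lama3 and Lamb3 were many times higher in tumour cells, and so was Itga5, the alpha subunit of the fibronectin receptor. In liver tumour cells 13 of 28 tested members were called, 12 of them higher, beside 23.5% of all genes tested, 15% higher. In peritoneal tumour cells 11 of 28 were called, all higher, beside 20.1%, 13.4% higher. Itga9, Itgam and Itgax, with Itgal in the liver comparison and Lama4 in the peritoneal one, had failed the filter on low counts between cultures. They entered here only through the tumour cells, where they are high, so their calls could only be higher. Counts and medians include them. The median log2 fold change of the tested members was 0.63 in liver and 0.70 in peritoneal tumour cells, beside -0.01 in both over all genes tested. The comparisons share the RasHIGH libraries. All RasHIGH libraries were in lane 4 and all sorted libraries in lanes 1 to 3, and only the sorted cells were dissociated, so growth in the mouse, dissociation, sorting and lane cannot be told apart here, and neither can the Ras level of the injected cells.

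Lama3 was at 0.412, 0.257 and 0.224 CPM in RasHIGH cells. It was at 37.5, 43.6, 61.7 and 36.7 CPM in liver tumour cells (log2 fold change 7.2, SE 0.32, adjusted p = 3.2e-06) and at 34.5, 12, 4.63 and 15.6 CPM in peritoneal tumour cells (5.79, SE 0.80, adjusted p = 0.0015, and 5.17 without mouse 1). Every tumour cell library was above every culture library. Lamb3 was at 14.7 ± 5.43 CPM in RasHIGH, 262 ± 34.8 in liver tumour cells (4.16, SE 0.28, adjusted p = 2.1e-05) and 129 ± 27.9 in peritoneal tumour cells (3.15, SE 0.31, adjusted p = 4.2e-04). Among the chains of laminin-511, Lamb1 was called in liver tumour cells alone (567 ± 205 against 1239 ± 121 CPM, 1.14, SE 0.22, adjusted p = 0.0035), a call lost without RasHIGH replicate 2 (0.94), and in peritoneal tumour cells its value was 0.93 (SE 0.24, adjusted p = 0.0173). The difference between these 2 values was tested directly as the site comparison below, where Lamb1 was not called.

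Of the receptors, Itga5 was at 93.7, 51.7 and 46.8 CPM in RasHIGH, at 393, 405, 519 and 510 CPM in liver tumour cells (2.84, SE 0.26, adjusted p = 8.5e-05) and at 314, 458, 519 and 345 CPM in peritoneal tumour cells (2.69, SE 0.30, adjusted p = 6.35e-04). Its partner Itgb1 was at 494 ± 44.0 CPM in RasHIGH, 1462 ± 93.7 in liver (1.57, SE 0.12, adjusted p = 3.8e-05) and 1248 ± 11.5 in peritoneal tumour cells (1.35, SE 0.10, adjusted p = 1.6e-04). The groups did not overlap for either gene, as for 48.9% of all genes in the liver and 45% in the peritoneal comparison. The matrix ligand of this receptor, Fn1, was also called, with log2 fold changes of 5.86 (SE 0.64, adjusted p = 1.8e-04) in liver and 5.42 (SE 0.66, adjusted p = 9.2e-04) in peritoneal tumour cells. Itga7, another laminin-binding subunit, was called at low levels, from 1.75 ± 0.86 CPM in RasHIGH to 5.20 ± 1.08 in liver (1.57, SE 0.34, adjusted p = 0.0059) and 4.81 ± 0.70 CPM in peritoneal tumour cells (1.47, SE 0.36, adjusted p = 0.0155). Itga1, the alpha subunit of a collagen receptor, was the only member called lower, at 68.9 ± 11.3 CPM in RasHIGH and 27.8 ± 4.70 CPM in liver tumour cells (-1.30, SE 0.17, adjusted p = 4.0e-04). Itga6, Itga3, Itgb4 and Itga2 were not called at either site, with log2 fold changes for Itga6 of 0.49 in liver and 0.42 in peritoneal tumour cells.

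The other calls were leukocyte integrin genes, alpha4 and alpha9, and, in peritoneal tumour cells, Lama4. Itgal had no count in any RasHIGH library, and its means of 1.29 CPM in liver and 1.02 CPM in peritoneal tumour cells were at least 9.59-fold and 7.60-fold higher than 3 counts in the shallowest RasHIGH library (0.135 CPM). It did not pass the filter on low counts in the peritoneal comparison. Itgam, Itgax and Itga9 had 0 to 3 counts in each culture library and 14 to 607 counts in each tumour cell library. Lama4 had at most 6 counts in a culture library and reached 12 CPM in the peritoneal tumour cells of mouse 1, with a log2 fold change against RasHIGH of 5.49 (SE 1.23), or 4.25 without this library. Leukocyte markers moved with these genes, from 4.28 to 8.06 CPM summed in RasHIGH to 20.8 to 175 CPM in tumour cells, and so did fibroblast markers, from 1.03 to 1.35 CPM in RasHIGH to 211 to 1455 CPM in peritoneal tumour cells. Cd68, a leukocyte marker also counted in cultures, made up 11.8 to 16.7 CPM of sums of 28.2 to 37.7 CPM in liver tumour cells. In peritoneal tumour cells Cd68 was at 8.98 to 23.5 CPM. The part of leukocytes and fibroblasts in the result was not tested.

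The laminin make-up of each group was expressed as the share of each chain in the length-scaled CPM of the 11 laminin genes. In cultures the leading chain was Lama5, with 34 ± 2.6% in BMEL WT and 33.4 ± 4.3% in RasHIGH, where its range overlapped that of Lamb1 (31.1 ± 2.6%). In tumour cells it was Lamb1, with 35.4 ± 1.7% in liver and 35.5 ± 3.4% in peritoneum. In the peritoneum its range, from 31.1%, overlapped that of Lama5, which reached 32.7%. Lamb3 took 2.13 ± 1.2% in RasHIGH, 17.0 ± 1.6% in liver tumour cells and 9.77 ± 2.0% in peritoneal tumour cells. In stroma, Lamc1 or Lamb1 led: Lamc1 took 26.9 ± 1.2% and Lamb1 27.4 ± 1.8% in liver stroma, and they took 33.8 ± 1.4% and 23.2 ± 1.7% in peritoneal stroma. Lama4, the alpha chain of vascular and mesenchymal laminin, took 4.64 ± 1.3% in liver and 12.1 ± 0.61% in peritoneal stroma, and at most 0.375% in any tumour cell library.

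**Figure D2:**
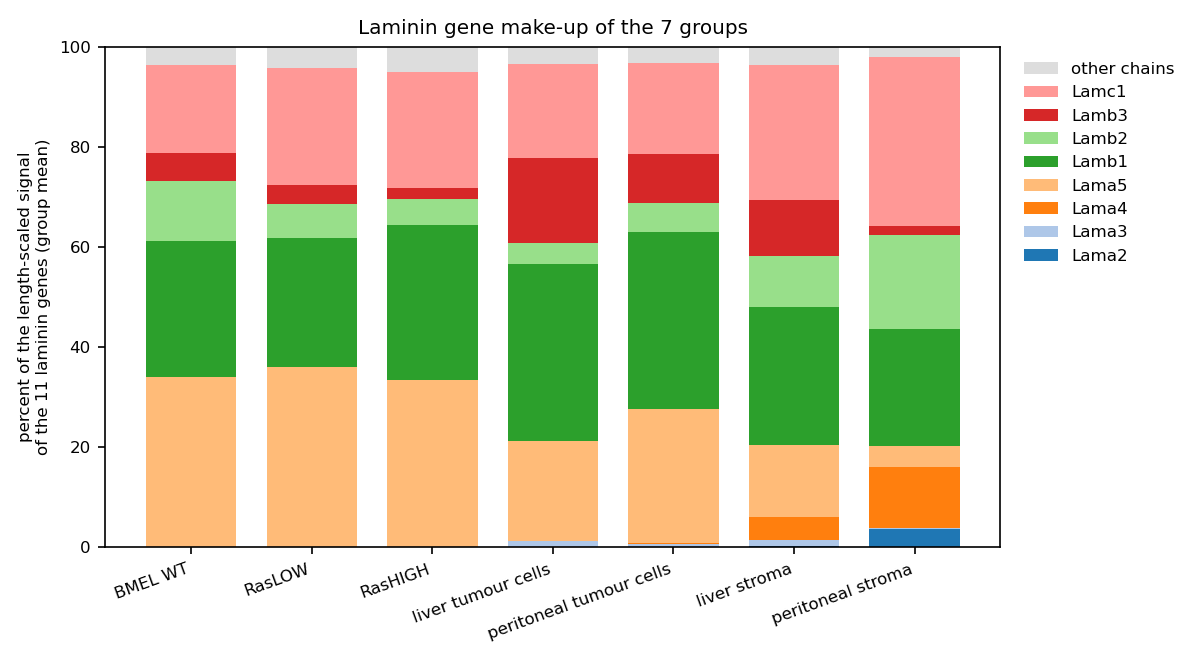
Mean share (percent) of 8 laminin genes, and of the other chains together (grey), in the length-scaled CPM of all 11 laminin genes, in each of the 7 groups (n = 3 cultures and n = 4 sorted populations each). The Lamb3 share was 2.13% in RasHIGH and 17.0% in liver tumour cells, and Lama4 reached 12.1% in peritoneal stroma.

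Tumour cells and stroma of the same tumours were compared to see which compartment carried each gene. Most integrin and laminin genes differed, in both directions. In the liver 27 of 34 tested members were called, 11 higher and 16 lower in tumour cells, beside 44% of all genes tested (43.9% with the adjusted p). In the peritoneum 28 of 34 were called, 10 higher and 18 lower, beside 43.7%. Of all genes, 16.5% were higher and 27.6% lower in the liver, and 16.3% and 27.5% in the peritoneum. Itga8, Itga11, Itgb8 and Lama1, with Itgad in the liver and Lama2 in the peritoneum, failed the filter between tumour cells of the sites. Lama4 in the liver and Itgal in the peritoneum failed the filter in tumour cells of that site against RasHIGH. All of these entered here only through the stroma, so their calls could only be lower. The tested members had a median log2 fold change of -0.73 in liver and -1.62 in the peritoneum, beside 0.00 and 0.07 over all genes tested. Libraries of the compartments did not overlap for 31 members in the liver and 32 in the peritoneum, beside 73% and 71.5% of all genes. Under another scaling (relative log expression), the peritoneal median of all genes was -0.07.

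Among the genes higher in tumour cells at both sites were Itga3, Itga6 and Itgb4 of the laminin receptors, Itga2 of the collagen receptors, Itgb6, and the laminin chains Lama3, Lamb3, Lama5 and Lamb1. Among the receptors, Itga3 was at 1221 ± 121 CPM in tumour cells and 181 ± 31.1 CPM in stroma of the liver (log2 fold change 2.76, SE 0.13, adjusted p = 3.3e-09), and at 1090 ± 104 and 97.3 ± 26.9 CPM in the peritoneum (3.59, SE 0.20, adjusted p = 1.8e-06). Itgb4 and Itga2 differed as much, by 2.84 (SE 0.16) and 2.72 (SE 0.11) in the liver and by 3.70 (SE 0.14) and 3.64 (SE 0.21) in the peritoneum. Itga6 was at 1705 ± 58.9 against 324 ± 16.4 CPM in the liver and at 1614 ± 90.9 against 211 ± 59.4 CPM in the peritoneum. Itgb1 was found in both compartments and was not called, at 0.99 (SE 0.09, adjusted p = 8.7e-07) in the liver and 0.53 (SE 0.08, adjusted p = 2.9e-04) in the peritoneum. Its tumour cell libraries were nevertheless all above the stromal libraries at each site.

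Of the laminin chains, Lamb3 was at 262 ± 34.8 against 44.1 ± 6.16 CPM in the liver (2.58, SE 0.13, adjusted p = 3.5e-09) and at 129 ± 27.9 against 14.8 ± 5.13 CPM in the peritoneum (3.23, SE 0.27, adjusted p = 1.1e-05). Lama5 differed by 2.45 (SE 0.16) and 3.42 (SE 0.25) and Lamb1 by 2.36 (SE 0.11) and 1.34 (SE 0.14). Lama3 differed by 2.03 (SE 0.18, adjusted p = 8.3e-07) in the liver and by 2.14 (SE 0.57, adjusted p = 0.0082) in the peritoneum, where the groups overlapped and the value without the tumour cells of mouse 1 was 1.41. Lamc1 was called higher in liver tumour cells (1.48, SE 0.08, adjusted p = 1.1e-08) and not in the peritoneum (-0.18, SE 0.09, adjusted p = 0.098).

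Higher in stroma at both sites were the laminin alpha chain Lama4, Lama1 and Lamc3, the collagen-binding subunits Itga10 and Itga11, and Itga2b, Itga4, Itga8, Itga9, Itgb5, Itgb8, and the leukocyte genes Itgal, Itgam, Itgax and Itgb2. Itgad was called in the liver and was too low to be tested in the peritoneum. In the liver, Lama4 reached 0.348 ± 0.14 CPM in tumour cells and 49.6 ± 13.3 CPM in stroma (-7.17, SE 0.30, adjusted p = 7.7e-10). In the peritoneum it was at 4.35 ± 5.09 and 288 ± 31.8 CPM (-5.95, SE 0.76, adjusted p = 1.2e-04, and -7.26 without mouse 1). Lama2, the alpha chain of muscle and mesenchymal laminin, differed by -6.29 (SE 0.65, adjusted p = 3.5e-05) in the peritoneum, from 70.4 ± 12 CPM in stroma to 0.837 ± 0.96 CPM in tumour cells, and Itga11 by -6.19 (SE 0.73, adjusted p = 7.7e-05). Without mouse 1 these were -7.38 and -7.58. In the liver Lama2 was too low to be tested, with 1.61 ± 1.47 CPM in stroma. Fibroblast markers in tumour cells summed to 0.479 to 1.49% of those in the stroma of the same liver tumour and to 0.365 to 2.69% in the peritoneum, and Lama4 stood at 0.310 to 1.11% and 0.546 to 4.35%. Endothelial markers stood higher, at 9.60 to 34.2% and 13.4 to 65.7%. The part of such cells in the low values of tumour cells was not tested. Itgb5, which pairs with alphav, was less divided, at 50.5 ± 5.66 against 237 ± 18.3 CPM in the liver and 73.6 ± 9.02 against 314 ± 42.2 CPM in the peritoneum. Itgb3 and Itga7 were called lower in tumour cells in the peritoneum (-1.66, SE 0.40 and -1.58, SE 0.27), and in the liver they were at -0.78 (SE 0.12) and -0.68 (SE 0.27). The interaction test below did not call either of them.

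The leukocyte alpha subunit genes Itgal, Itgam and Itgax had the lowest fold changes of the tested members in the liver. The leukocyte integrins are Itgal, Itgam, Itgax and Itgad, which encode the alpha subunits of LFA-1, Mac-1, CD11c and CD11d, and Itgb2, which encodes the CD18 beta subunit that all of them need. Itgax had 1.35 ± 0.42 CPM in liver tumour cells and 679 ± 110 CPM in liver stroma (log2 fold change -8.98, SE 0.22, adjusted p = 1.2e-11), Itgam differed by -8.52 (SE 0.20) and Itgal by -8.42 (SE 0.15). In the peritoneum the 3 genes differed by -7.16 (SE 1.03), -6.95 (SE 1.21) and -7.31 (SE 0.79). Without the tumour cells of mouse 1 these were -9.16, -9.40 and -8.94. The alpha4 and alpha9 subunits, which bind VCAM-1, fibronectin and tenascin, had the same direction, with Itga4 at -7.05 (SE 0.20) and Itga9 at -7.65 (SE 0.23) in the liver. In the peritoneum they were at -5.73 (SE 0.44) and -6.21 (SE 0.80), and at -6.37 and -7.73 without mouse 1. Itgad had 0 or 1 count in each tumour cell library and 9 to 33 counts in each stromal library.

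Relative to the stroma of the same tumour, the tumour cell level of Ptprc, the pan-leukocyte gene that encodes CD45, was 0.178 to 0.256% in the liver. Itgal was at 0.266 to 0.349%, Itgam at 0.208 to 0.333% and Itgax at 0.144 to 0.261%, which is close to Ptprc. In the peritoneum Ptprc stood at 1.99% in mouse 1 and at 0.175% at the lowest, and Itgal, Itgam and Itgax were also highest in mouse 1, at 2.03%, 2.48% and 2.45%. Itgb2 stood higher, at 2.27 to 4.34% in the liver and 0.996 to 4.49% in the peritoneum, with 23.6 ± 4.21 CPM in liver tumour cells and 14.6 ± 7.94 CPM in peritoneal tumour cells. It was not alone in this among leukocyte genes: Cd68, a macrophage marker, was at 2.87 to 4.06% in the liver and 2.60 to 6.01% in the peritoneum, whereas Csf1r, another, was at 0.244 to 0.456% and 0.204 to 3.51%. Cd68 was also counted in cultures, with 65 to 204 counts per library.

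The count of Itgb2 per count of its 4 alpha partners together was 0.337 to 0.359 in the 4 liver stroma libraries and 0.332 to 0.371 in the 4 peritoneal stroma libraries. In liver tumour cells it was 3.08 to 5.93, and in peritoneal tumour cells it was 0.689 to 8.72, with the lowest value in mouse 1. The tumour cell libraries of both sites lay above all stromal libraries. In the cultures, which hold no stroma, Itgb2 had 31 to 105 counts per library, whereas its alpha partners together had 0 to 5 counts. These ratios were examined after the values had been seen, and no test was made of them.

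**Figure D3:**
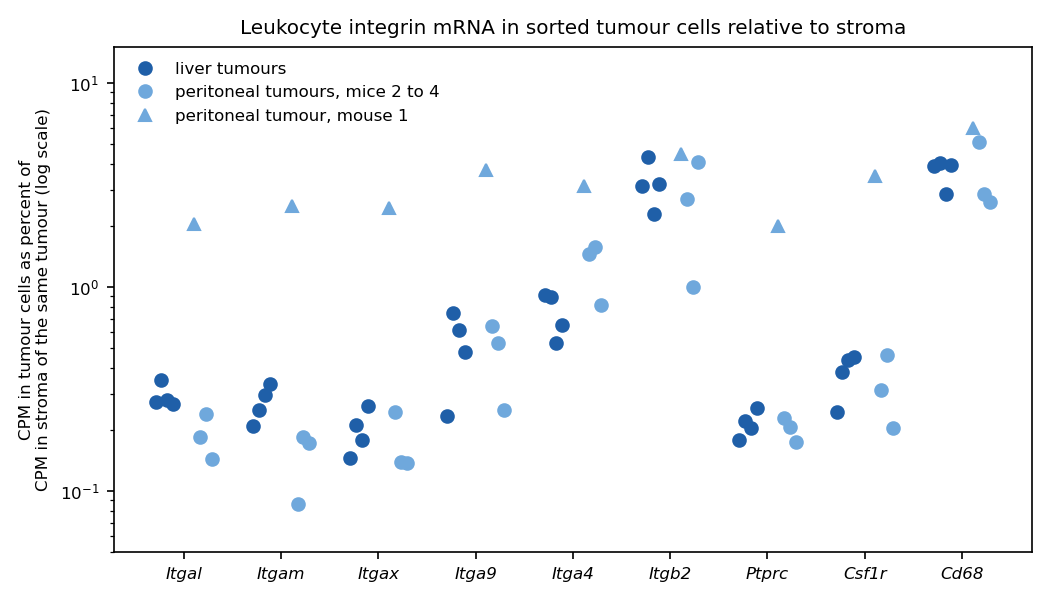
CPM in sorted tumour cells as percent of CPM in stroma of the same tumour (log axis) for 6 integrin genes and the leukocyte genes Ptprc, Csf1r and Cd68, with a point per mouse and a triangle for the peritoneal tumour of mouse 1. Itgal, Itgam and Itgax lay near Ptprc (0.178 to 0.256% in the liver), and Itgb2 and Cd68 lay at 2.27 to 4.34% and 2.87 to 4.06% in the liver.

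The stroma of liver and peritoneal tumours was compared next. The mesenchymal laminin chains were lower in liver stroma and Lama3 and Lamb3 were higher. All 35 members were tested and 12 were called, 6 higher and 6 lower in liver stroma, beside 14.3% of all genes tested, 3.86% higher and 10.4% lower, and the count was 12 with the adjusted p as well, where 9.98% of all genes were lower. The median log2 fold change of the members was 0.30, beside 0.02 over all genes tested. Lama2 was at 3.54, 1.89, 0.173 and 0.842 CPM in liver stroma and at 77.9, 61.9, 83.1 and 58.6 CPM in peritoneal stroma (-5.43, SE 0.56, adjusted p = 7.8e-05). Lama4 was at 58.0, 63.1, 43.2 and 34.1 CPM in liver stroma and at 275, 305, 321 and 249 CPM in peritoneal stroma (-2.57, SE 0.19, adjusted p = 1.2e-05). Neither gene overlapped between the sites, as was so for 34.6% of all genes. Lama2 failed the filter on low counts between tumour cells and stroma of the liver. It entered here only through peritoneal stroma, where it is high, so its call could only be lower. Lama1 differed by -2.80 (SE 0.45, adjusted p = 0.0012), Lamb2 by -2.06 (SE 0.12, adjusted p = 4.4e-06) and Lamc1 by -1.51 (SE 0.09, adjusted p = 4.4e-06). Itga11, a collagen receptor subunit of fibroblasts, was at 3.27 ± 2.85 CPM in liver and 50.0 ± 17.1 CPM in peritoneal stroma (-3.95, SE 0.63, adjusted p = 0.0012). The fibroblast and stellate markers were lower in liver stroma too, with a highest liver sum of 8416 CPM and a lowest peritoneal sum of 53992 CPM. The 6 endothelial markers had the opposite order in their medians, with overlap, at 545 to 1118 CPM summed in liver stroma (median 649) and 358 to 688 CPM in peritoneal stroma (median 390). The part of either cell type in these differences was not tested.

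Lamb3 was at 37.5, 40.9, 46.8 and 51.3 CPM in liver stroma and at 10.7, 12.1, 14.2 and 22.1 CPM in peritoneal stroma (1.54, SE 0.21, adjusted p = 5.3e-04). Lama3 differed by 1.41 (SE 0.26, adjusted p = 0.0029), from 4.05 ± 1.52 CPM in peritoneal to 11.1 ± 1.99 CPM in liver stroma. Epithelial markers, in a sum carried by the keratins, moved the same way, from 675 to 1106 CPM summed in peritoneal stroma to 1216 to 1551 CPM in liver stroma, and their part in the result was not tested. The other members called higher in liver stroma were Itgal (1.34, SE 0.13, adjusted p = 5.2e-05), Itga2b (1.19, SE 0.25, adjusted p = 0.0049), Itga4 (1.15, SE 0.14, adjusted p = 1.9e-04) and Itga8 (1.28, SE 0.38, adjusted p = 0.0270). Ptprc, the pan-leukocyte gene, moved with Itgal and Itga4, from 507 to 611 CPM in peritoneal stroma to 940 to 1031 CPM in liver stroma. The 8 leukocyte markers together, Ptprc among them, overlapped between the sites, at 3474 to 4796 CPM summed in peritoneal and 4608 to 5397 CPM in liver stroma. Platelet markers, 4 in all, did not move with Itga2b, at 17.2 to 56.1 CPM summed in peritoneal and 13.7 to 24.1 CPM in liver stroma. The part of these cells was not tested. Itga8 rested on liver mouse 2, at 6.93 CPM beside 2.45 to 3.18 CPM in the others, and without it the log2 fold change was 0.83 and not called. Itgb2 had a smaller difference, of 0.62 (SE 0.09, adjusted p = 6.8e-04), and Itgam of 0.40 (SE 0.11, adjusted p = 0.0179).

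In tumour cells the sites differed less. Of 29 tested members 3 were called, 2 higher and 1 lower in the liver, beside 3.52% of all genes tested (1.15% higher and 2.37% lower), and 2 of them also with the adjusted p. Each was a laminin chain. Lama4 failed the filter on low counts in liver tumour cells against RasHIGH. It entered here only through the peritoneal tumour cells, where it is high, so its call could only be lower. Lamb3 was at 234, 240, 310 and 264 CPM in liver and at 124, 154, 145 and 91.6 CPM in peritoneal tumour cells, without overlap, as for 11.9% of all genes (1.02, SE 0.15, adjusted p = 0.0126). This is just above the threshold of 1, and without liver mouse 3 (0.92) or peritoneal mouse 4 (0.88) it fell below it with adjusted p-values of 0.0334 and 0.0137. Lama3 differed by 1.43 (SE 0.47, adjusted p = 0.122) and by 2.09 (adjusted p = 0.0080) without peritoneal mouse 1, whose 34.5 CPM lay near the liver values. Lama4 was at 0.180, 0.446, 0.479 and 0.286 CPM in liver and at 12, 1.86, 2.21 and 1.36 CPM in peritoneal tumour cells (-3.65, SE 0.75, adjusted p = 0.0325). Without peritoneal mouse 1 this was -2.39 (adjusted p = 0.0067), and 5 members were called in place of 3. With mouse as a block it was -3.02 (adjusted p = 0.103). Fibroblast markers summed to 40.3 to 61.7 CPM in liver and 211 to 1455 CPM in peritoneal tumour cells. Endothelial markers, in a sum carried by Cdh5, overlapped, at 74.6 to 228 CPM in liver and 54.1 to 235 CPM in peritoneal tumour cells. The part of either in the Lama4 difference was not tested.

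No laminin receptor subunit was called between tumour cells of the sites. The 95% intervals of the log2 fold change were -0.06 to 0.21 for Itga6, -0.02 to 0.35 for Itga3, 0.09 to 0.36 for Itgb1 and -0.69 to -0.16 for Itgb4. The interval of Itga2, which encodes a collagen receptor subunit, was -0.11 to 0.24. Itga1 and Itgb5, chosen after their values were seen, were lower in liver tumour cells by less than the threshold, at -0.67 (SE 0.14, adjusted p = 0.0330) and -0.55 (SE 0.11, adjusted p = 0.0307). The groups did not overlap for either gene, as for 11.9% of all genes tested.

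**Figure D4:**
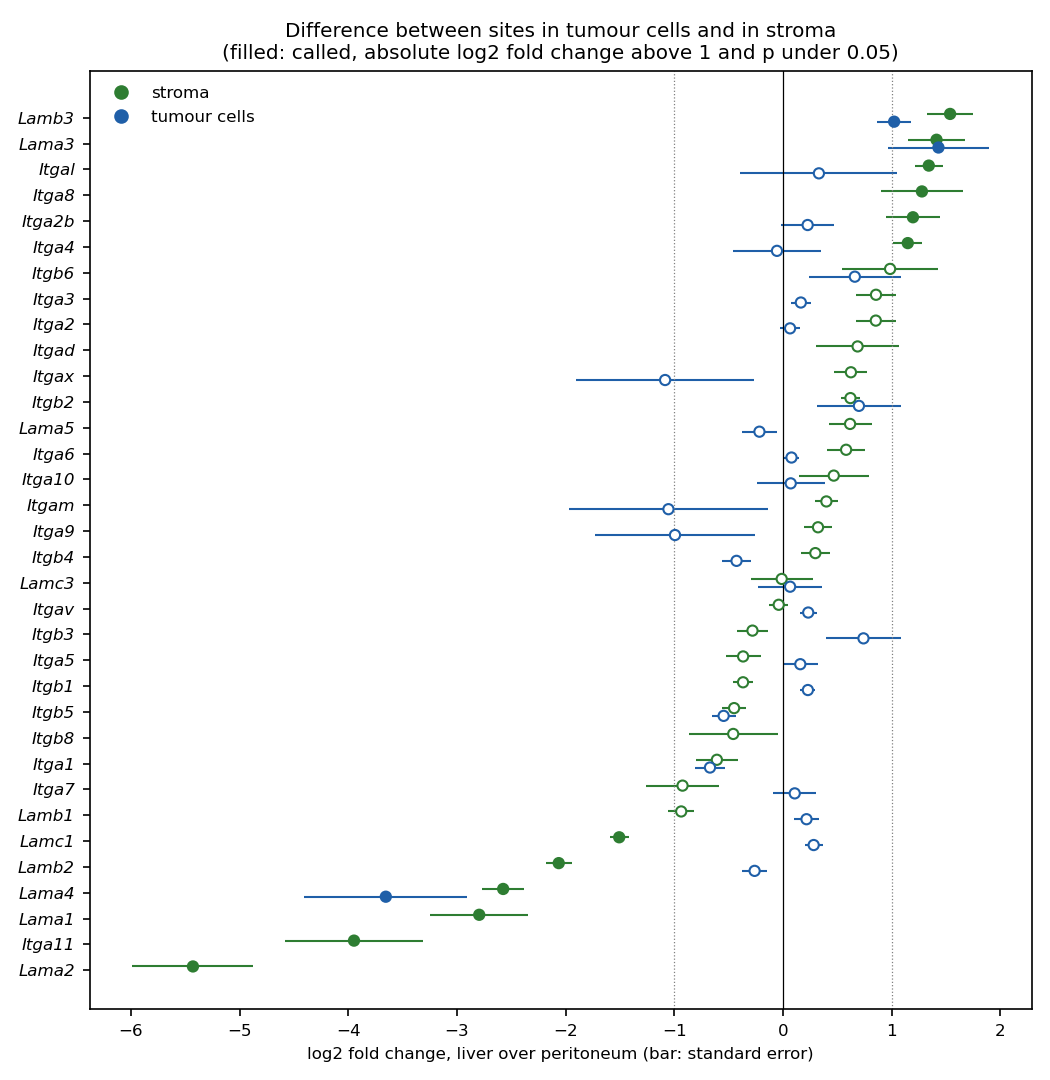
Log2 fold change of liver over peritoneum with its standard error for integrin and laminin genes in stroma (green) and in tumour cells (blue), with filled points for members called. Lama2, Itga11, Lama1 and Lama4 lay lowest in stroma, and Lama4, Lama3 and Lamb3 were the members called in tumour cells.

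Whether the difference between sites was itself different in tumour cells and in stroma was tested as an interaction over the 16 sorted libraries, with calls at an adjusted p under 0.05. It was so for 9 of 35 members, 4 with a positive and 5 with a negative value, beside 14.3% of all genes tested. The median over all genes tested was -0.12, and 0.02 without the tumour cells of peritoneal mouse 1. Positive values were found for Lamb2 (1.72, SE 0.17, adjusted p = 1.9e-05), Lamc1 (1.71, SE 0.11, adjusted p = 5.0e-07), Lamb1 (1.07, SE 0.18, adjusted p = 8.65e-04) and Itgb1 (0.52, SE 0.10, adjusted p = 0.0038). These are chains and a receptor subunit used by many cell types. In each, liver stroma was below peritoneal stroma, while tumour cells of the sites differed by at most 0.28 in absolute log2 fold change. All 4 calls stood when any 1 of the 16 libraries was left out.

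Negative values were found for Itga2b (-1.04, SE 0.32, adjusted p = 0.0417), Lama5 (-0.92, SE 0.29, adjusted p = 0.0490), Itga2 (-0.87, SE 0.22, adjusted p = 0.0168), Itgb4 (-0.81, SE 0.21, adjusted p = 0.0202) and Itga3 (-0.77, SE 0.23, adjusted p = 0.0377). Leaving out 1 library in turn lost the call of Itga2b in 13 of 16 fits, of Lama5 in 12, of Itga3 in 11, of Itgb4 in 2 and of Itga2 in 1. The number of members called fell to 5 without liver tumour cells of mouse 3 and without peritoneal stroma of mouse 2.

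The stromal level as percent of the tumour cell level of the same tumour is given beside these values. For the 5 epithelial markers together it was 15.2 to 16.9% in the liver and 7.27 to 12% in the peritoneum, values that the keratins set. Cdh1 was at 34.9 to 44.6% and 17.5 to 37.0%, and Epcam was higher in stroma than in tumour cells in all libraries. The stromal share was 13.5 to 16.6% and 7.07 to 13.1% for Itga3, 12.2 to 15.5% and 6.06 to 10.5% for Itgb4, and 13.6 to 17.7% and 6.62 to 10.9% for Itga2. Lama5, at 14.9 to 20.2% and 8.78 to 11.4%, also had a higher share in the liver. For all of these the liver share was above the peritoneal share in the same direction as for the keratins, and the part of epithelial cells in the stromal values was not tested. Lamb1, Lamc1, Lamb2 and Itgb1 had the opposite order, with 16.4 to 21.6% in the liver and 41.1 to 44.0% in the peritoneum for Lamb1, and 33.4 to 38.2% and 100.0 to 145% for Lamc1. For Lamb2 the shares were 52.1 to 73.3% and 151 to 251%.

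**Figure D5:**
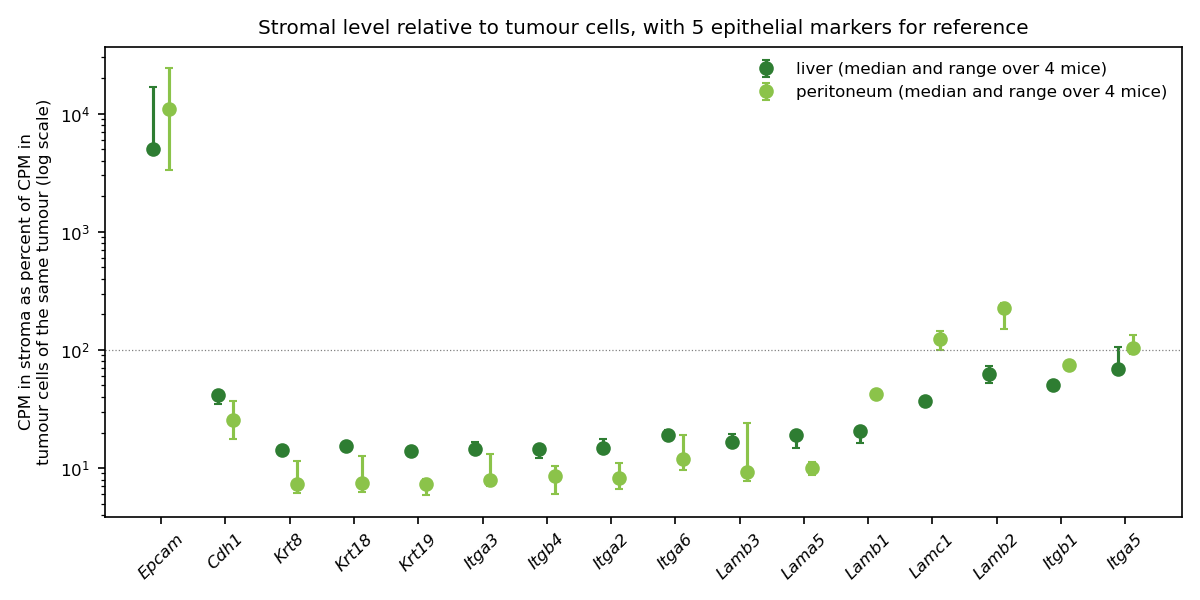
CPM in stroma as percent of CPM in tumour cells of the same tumour (log axis), as median and range over 4 mice, for 5 epithelial markers and 11 integrin and laminin genes in liver (dark) and peritoneum (light). Epcam lay far above 100%, Itga3, Itgb4 and Itga2 lay near the keratins at both sites, and Lamb1, Lamc1, Lamb2 and Itgb1 lay above them and higher in the peritoneum.

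Genes that work with the members were read from 3 fixed lists. Of 8 basement membrane partners, which link or receive laminin, 2 were called lower in RasLOW and 3 in RasHIGH than in BMEL WT, beside 3.54% and 6.03% of all genes lower, and none was higher. The nidogens, which bridge laminin and collagen IV, were among them: Nid2 was at -1.92 (SE 0.46, adjusted p = 0.0566) in RasLOW and -4.26 (SE 0.36, adjusted p = 5.7e-04) in RasHIGH, and Nid1 at -2.74 (SE 0.48, adjusted p = 0.0230) and -2.06 (SE 0.52, adjusted p = 0.0289). Fn1 was at log2 fold changes of -3.57 and -3.90 in these cultures. Against stroma, 6 of the 8 partners were lower and 1, Agrn, was higher in tumour cells at each site, beside 27.6% of all genes lower and 16.5% higher in the liver and 27.5% and 16.3% in the peritoneum. Agrn, a proteoglycan that binds laminin, differed by 1.52 (SE 0.09) in the liver and 2.17 (SE 0.15) in the peritoneum. Of the other integrin ligands, 6 were tested in cultures, and 2 of them, Fn1 and Tnc, were called lower in each Ras culture. Of 7 tested against stroma, 5 were lower in the liver (Fn1, Icam1, Tnc, Vcam1 and Vtn) and 4 in the peritoneum (the same without Vcam1). The only one higher was Npnt, the ligand of alpha8beta1, by 2.93 (SE 0.10) and 3.87 (SE 0.15). Its receptor subunit Itga8 had 0 to 5 counts in each tumour cell library and 23 to 195 counts in each stromal library.

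Of 26 genes of the intracellular adhesion complex, 25 were tested in cultures, and 2 were called lower in RasLOW, and 1 higher and 2 lower in RasHIGH than in BMEL WT, beside 4.4% and 9.65% of all genes called. Tns4, a tensin that binds beta integrin tails, was higher in RasHIGH by 3.01 (SE 0.40, adjusted p = 0.0029), and Tns1 was at -2.85 (SE 0.40, adjusted p = 0.0036). Against stroma, 7 of 26 were higher and 5 lower in liver tumour cells, and 7 higher and 4 lower in peritoneal tumour cells, which is near the background of 44% and 43.7% of all genes called. Of the kindlins, which activate integrins, Fermt1, the epithelial form, was higher in tumour cells (2.83, SE 0.36 and 4.01, SE 0.67), and Fermt3, the leukocyte form, was lower (-6.93, SE 0.13 and -6.04, SE 0.80). The other one, Fermt2, was not called (0.65, SE 0.18 and -0.72, SE 0.16).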

How the data were processed

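RNA was sequenced from 9 BMEL culture libraries and 16 libraries of cells sorted from tumours of 4 mice. Per the study's methods, mRNA libraries were made with a NuGEN kit and reads were aligned to mm9 with TopHat2. The submitters' processing notes name other builds (mm8 and mm10), FastQC and Bowtie 0.12.2. The counting program, its strand setting and the annotation are not given in the sources used here, so reads of overlapping or antisense genes cannot be told apart. The authors deposited raw counts per gene, not normalized, in 1 table whose columns were matched to samples by label.

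Counts were analysed in edgeR 4.0.16 (R 4.3.3). Genes were kept with a minimum count of 10 (filterByExpr), libraries were scaled by TMM, and each pair of groups was fitted on its own with the quasi-likelihood test over all genes that passed, with Benjamini-Hochberg adjustment. CPM levels were scaled over all 25 libraries, and divided by exon length from the GENCODE annotation of build NCBIM37 for levels per kilobase. A printed interval is a 95% interval from the standard error and the normal distribution, which is too narrow for so few libraries. With 3 counts as the limit that a count of 0 allows, the smallest detectable level was 0.0572 to 0.143 CPM, for counting error only. Replicates are independent biological samples per the study's methods. The same mice gave all 4 sorted populations, and mouse numbers therefore pair them, with mean correlations of deviations of -0.040 between tumour cells of the sites, 0.202 between stroma, and 0.227 and 0.201 between tumour cells and stroma in the liver and the peritoneum. Fits on simulated counts with known changes were checked before use. Alternatives were DESeq2 1.42.0, other scaling, no filter, 1 fit of all libraries, the mouse or replicate block, adjusted p-values and leaving out each library. Lane 4 libraries alone, lane as a term, and the thresholds of the sorted cells for RasHIGH against RasLOW were added after seeing the data.

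Members, gene lists and tests were chosen with earlier results of these data known. Genes named were, for each comparison, up to 6 called members with the largest change, an adjusted p under 0.05 and no overlap, together with Lama3, Lamb3, the chains of laminin-511 and Itga2, Itga3, Itga6, Itgb1 and Itgb4. One item is not reported here, and counts of members include it. Other genes were named after their values were seen.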

Additional observations from a re-analysis of the deposited data

Results flagged for a closer look

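In groups of 4 libraries, a library was marked where its gap to the nearest of the others, divided by the range of the group, was above Dixon's critical value of 0.829. This occurred in 14 of 131 gene and group combinations, beside 6.55 expected from chance at 1 in 20. Of these, 6 were high values of the peritoneal tumour cells of mouse 1: Itga4 (6.93 CPM, others 1.87 to 2.61), Itga9 (6.37 CPM, others 0.515 to 0.945), Itgal (3.11 CPM, others 0.270 to 0.419), Itgam (18.9 CPM, others 0.594 to 1.32), Itgax (9.08 CPM, others 0.591 to 0.918) and Lama4 (12 CPM, others 1.36 to 2.21). The leukocyte and fibroblast markers of this library were also the highest of the tumour cell libraries, at 175 and 1455 CPM summed, and their part in these values was not tested.

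In peritoneal tumour cells of mouse 3, Itga3 was high at 1245 CPM (others 1019 to 1055) and Itgb3 low at 5.22 CPM (others 19.8 to 22.5). In liver tumour cells, mouse 4 was high for Itgax (1.97 CPM, others 1.13 to 1.14) and Lama5 (981 CPM, others 723 to 762), and mouse 1 was low for Lamb1 (1058 CPM, others 1288 to 1308). In liver stroma, Itga8 was high in mouse 2 (6.93 CPM, others 2.45 to 3.18) and Itga9 in mouse 1 (262 CPM, others 199 to 208). In peritoneal stroma, Itga8 was low in mouse 4 (0.913 CPM, others 1.71 to 1.80).

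The difference between liver and peritoneum was not the same in tumour cells and stroma for 9 genes, by the interaction test with an adjusted p under 0.05. The value, tumour cells minus stroma on the log2 scale, was 1.72 for Lamb2, 1.71 for Lamc1, 1.07 for Lamb1, 0.52 for Itgb1, -0.77 for Itga3, -0.81 for Itgb4, -0.87 for Itga2, -0.92 for Lama5 and -1.04 for Itga2b. The sum of epithelial markers in stroma, carried by the keratins, was as percent of tumour cells also higher in the liver (15.2 to 16.9%) than in the peritoneum (7.27 to 12%), and their part in the negative values was not tested. Unlike the other genes with negative values, Itga2b was higher in stroma, at 1499 to 2633% of tumour cells in the liver and 623 to 1660% in the peritoneum.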

How the results depend on the processing

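No called member changed direction under any alternative run. For single members, DESeq2 lost no call in 108 values, lane as a term none in 24, relative log expression scaling 1 in 110, the fit of all libraries 3 in 110 and the fit without a low count filter 3 in 110. Leaving out a library lost 54 calls in 914 values, most of them of the interaction. For RasLOW against BMEL WT, the count of 2 called members became 1 with the replicate block, 0 in lane 4 alone, 0 with the adjusted p and 0 to 2 when a library was left out. For RasHIGH against BMEL WT, 4 became 2 in lane 4 alone, 2 with the adjusted p and 2 to 5 on leaving out a library. For RasHIGH against RasLOW, 1 became 0 with the adjusted p, 2 with the thresholds of the sorted cells, and 0 to 2 on leaving out a library. For liver against peritoneal tumour cells, 3 became 5 without the filter, 5 in the fit of all libraries and 3 to 5 on leaving out a library. For the interaction, 9 became 5 to 10 on leaving out a library. Leaving out a library moved the other counts to 11 to 15 for stroma between sites (main 12), 27 to 29 and 28 to 30 for tumour cells against stroma (main 27 and 28), and 12 to 14 and 11 to 16 for tumour cells against RasHIGH (main 13 and 11). With BMEL replicate numbers as a block, Itgb6 in RasLOW (-1.49) fell under the threshold, and blocking by number or mouse changed no other call in 86 values. BMEL numbers share no stated source, and same-numbered libraries deviated together at a mean r of -0.132, 0.063 and -0.304 in the 3 culture comparisons, with 0, 2 and 0 of 3 pairs matching best with their own number. Without the low count filter, the median of all genes in tumour cells against stroma was -0.17 in the liver and -0.16 in the peritoneum. Members at a few counts in a group, such as Itga8, Itgad and Lama1 in tumour cells, have fold changes that depth does not fix.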
